A study of Homo sapiens with 6 samples.

Results

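The genes described here encode the subunits of the mitochondrial respiratory chain and of ATP synthase, 84 of the 18656 genes measured on 6 arrays of the human gastric adenocarcinoma line AGS. They were chosen by symbol: any gene whose array symbol is an NDUFA, NDUFB, NDUFC, NDUFS or NDUFV name, begins with UQCR, COX4 to COX8 or ATP5, or is SDHA, SDHB, SDHC, SDHD or CYC1. The rule uses no measured value, but the genes were chosen with earlier results of these data known. Of these 84 genes, 34 belong to complex I, 4 to complex II, 8 to complex III, 19 to complex IV and 16 to complex V, while 3 carry a matching symbol and belong to no complex. In all, 79 of the 84 are subunits and 5 are not: EMC8 (array symbol COX4NB), DMAC2L (ATP5S), DMAC2 (ATP5SL), COX7A2L and COXFA4L2 (NDUFA4L2). NDUFA4 and COXFA4L2 were placed with complex IV, and EMC8, DMAC2L and DMAC2 outside the complexes, after the values had been seen. The 19 genes counted with complex IV thus include the non-subunits COX7A2L and COXFA4L2. The subunits encoded in mitochondrial DNA were not analysed here.

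The inhibitor group consisted of 3 cultures transfected with an anti-miR against miR-25-3p, and the control group of 3 cultures transfected with a non-targeting control RNA. Cells of both groups received oligofectamine, were transfected again after 24 h and were harvested 48 h after the first transfection, so the lipid and an RNA oligonucleotide are common to all 6 samples. AGS is a single line, so the arrays say nothing of variation between tumours or patients. The labels call the samples biological replicates without saying how the cultures were separated, and the p-values measure the spread between these samples. Against the labelled cell type, 7 epithelial marker genes lay between 8.46 and 12.03 in control arrays on the log2 scale. The 19 markers of leukocytes, fibroblasts, endothelium, erythroid cells and striated muscle lay between 2.28 and 6.39, and none was at 0.

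The respiratory chain passes electrons from NADH (complex I) and succinate (complex II) through coenzyme Q, complex III and cytochrome c to oxygen at complex IV, and pumps protons across the inner mitochondrial membrane as it does so. ATP synthase, also called complex V, lets the protons return through a rotating ring and makes ATP. All of the subunits measured here are encoded in the nucleus, and their genes are widely expressed, with a few isoforms restricted to muscle, lung, testis or low oxygen. A microRNA lowers the messages that its seed, near its 5′ end, can pair with, and an anti-miR is a complementary oligonucleotide that blocks it. The mature miR-25-3p is printed here because it is the molecule the treatment was aimed at, with its seed (bases 2 to 8) in capitals, 5′ to 3′, from RefSeq (GRCh38.p14, chr7:100093571-100093592, minus strand). In the same RefSeq table the seed AUUGCAC was shared by 6 mature microRNAs, namely miR-25-3p, miR-32-5p, miR-92a-3p, miR-92b-3p, miR-363-3p and miR-367-3p.
hsa-miR-25-3p: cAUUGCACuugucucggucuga

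The mean level of the set differed between groups by less than the spread between arrays. Their mean level was 7.71 ± 0.027 (SD, n = 3) in the controls against 7.73 ± 0.040 (SD, n = 3) with the inhibitor, and the median difference over the 84 genes was 0.022 on the log2 scale, against 0.0021 over all genes. No gene of the set passed an adjusted p of 0.05 in limma (0 of 84), and 0 of 18656 genes did so in the whole table (0%). The smallest adjusted p in the set was 0.79. At an unadjusted p under 0.05, limma gave 1 gene of the set higher in the inhibitor arrays, COX7B, where 2.95% of all genes were higher at that level. It gave 1 gene lower, ATP5F1E, where 3.16% of all genes were lower. The difference was positive for 47 of the 84 genes (56.0%) and for 50.5% of all genes.

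The arrays of the 2 groups did not overlap for 10 of the 84 genes. NDUFA1, NDUFS1, UQCRH, COX7B and ATP5F1A lay wholly higher in the inhibitor arrays (5.95%, against 5.20% of all genes). NDUFB1, COX6B2, ATP5F1E, ATP5PF and DMAC2 lay wholly lower (5.95%, against 7.68% of all genes). Both shares are near those of the whole table, and an exact permutation test of 3 arrays against 3 cannot go below a two-sided p of 0.1 for any of these genes. NDUFS1, NDUFB1 and ATP5PF were named after their values had been seen, because they complete this count.

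Large differences were less common in the set than over all genes, but the 2 were not matched for level. Of the 84 genes, 63 were among the brightest 30% of all genes and 6 among the dimmest 30%. The median standard error was 0.101 in the set and 0.110 over all genes. The median size of the difference was 0.092 in the set and 0.091 over all genes, but 3 of 84 genes (3.57%) differed by more than 0.25, against 7.76% of all genes. Those 3 were COX7B, NDUFB4 and ATP5F1E. The 95% interval of the difference lay within 0.5 either side of 0, or 1.41-fold, for 80 of 84 genes (95.2%, against 85.2% of all genes). It lay within 1 either side of 0, or 2-fold, for all 84. The widest bounds were 0.64 above 0 and -0.49 below it, with standard errors (SE) from 0.081 to 0.17. With 3 arrays a group, a difference anywhere inside a gene's own interval cannot be told from the one measured. In these bulk samples, fewer cells expressing a gene and less of its RNA per cell cannot be told apart.

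**Figure D1:**
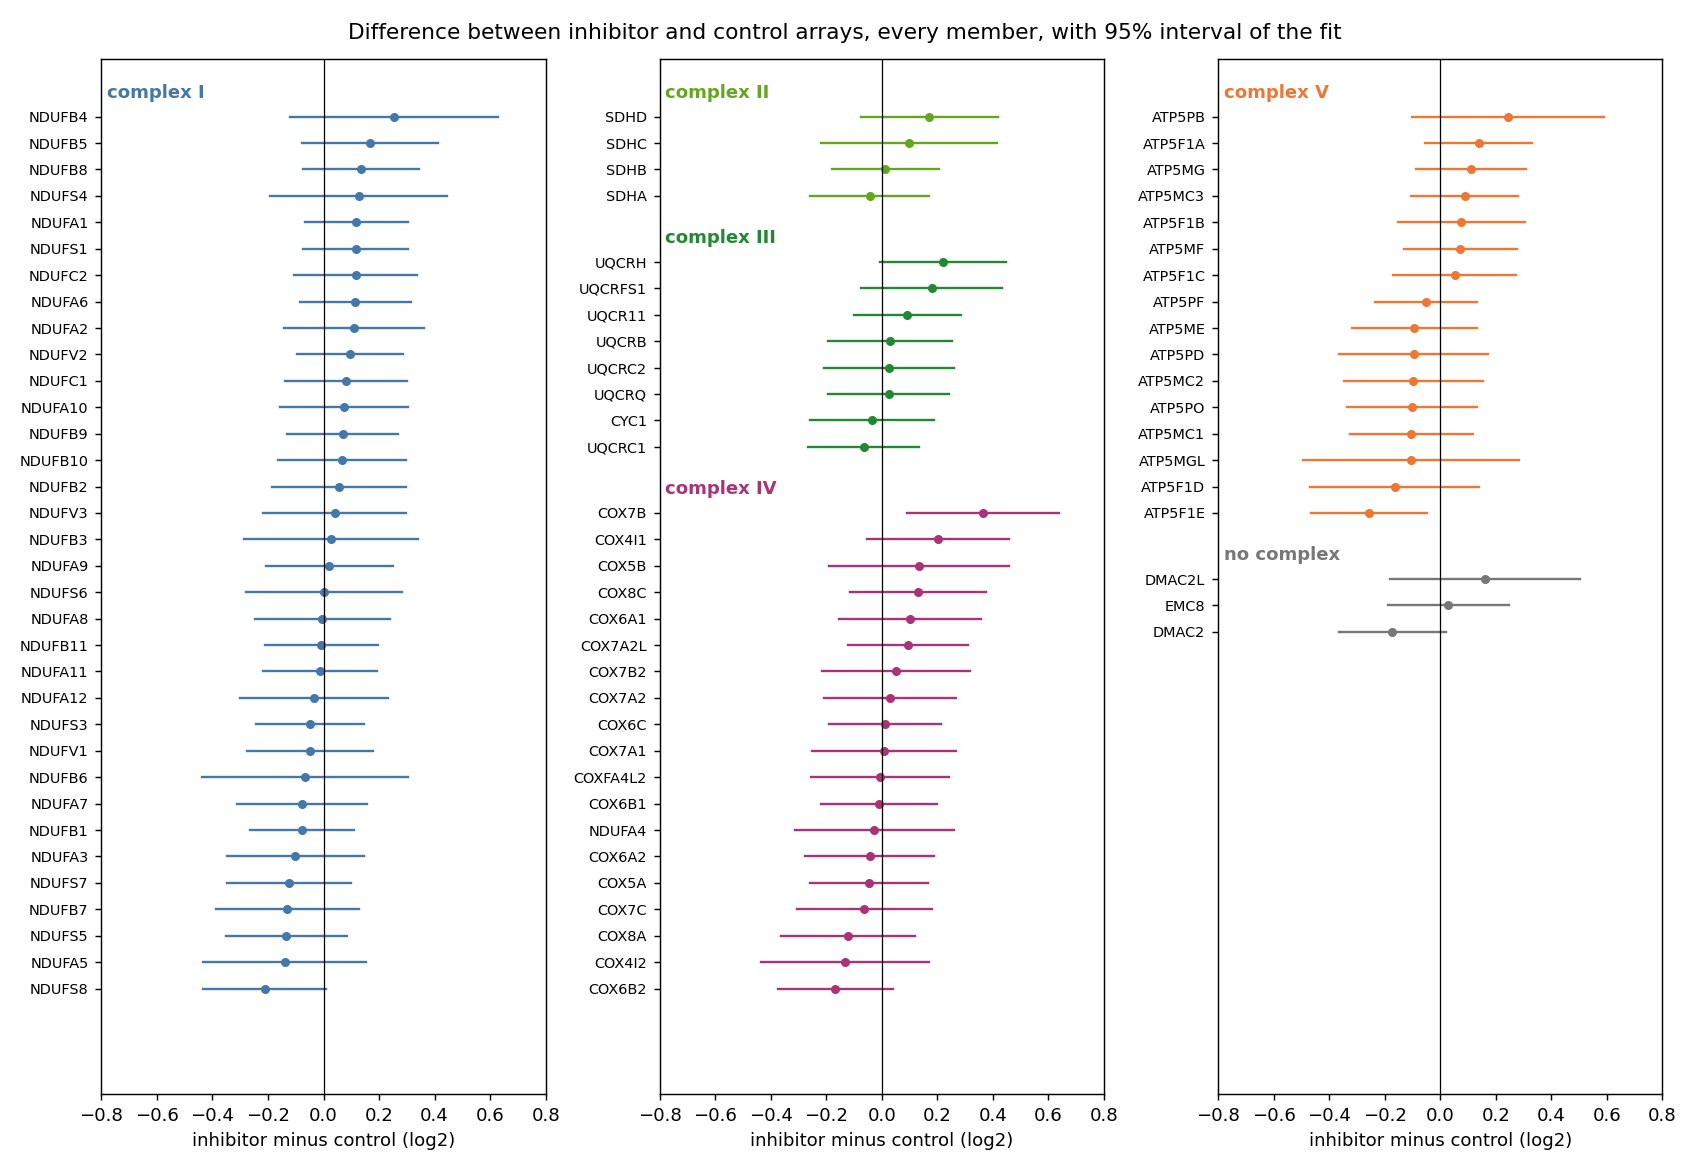
Difference in log2 expression, inhibitor minus control, for each of the 84 genes (vertical axis, grouped by complex), as points with 95% limma intervals as bars (3 arrays per group). Only the intervals of COX7B, at 0.36, and ATP5F1E, at -0.26, do not reach 0.

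The spread between arrays of 1 group was as large as the difference between groups. Averaged over the 84 genes, the arrays deviated from each gene's mean by -0.028, 0.022 and -0.021 in control replicates 1, 2 and 3 and by -0.035, 0.042 and 0.020 in inhibitor replicates 1, 2 and 3. Inhibitor replicate 2 was the highest, with 61 of the 84 genes above their own mean, and inhibitor replicate 1, with 35, was among the lowest. In the whole table, 9080 and 8981 of 18656 genes were above their mean in those same 2 arrays. Control replicate 1 was low in complex II, by 0.13 below the mean, with 0 of 4 genes above it, and in complex III, by 0.083. That array also had the lowest limma array weight, 0.445, where the others lay between 0.896 and 2.00.

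**Figure D2:**
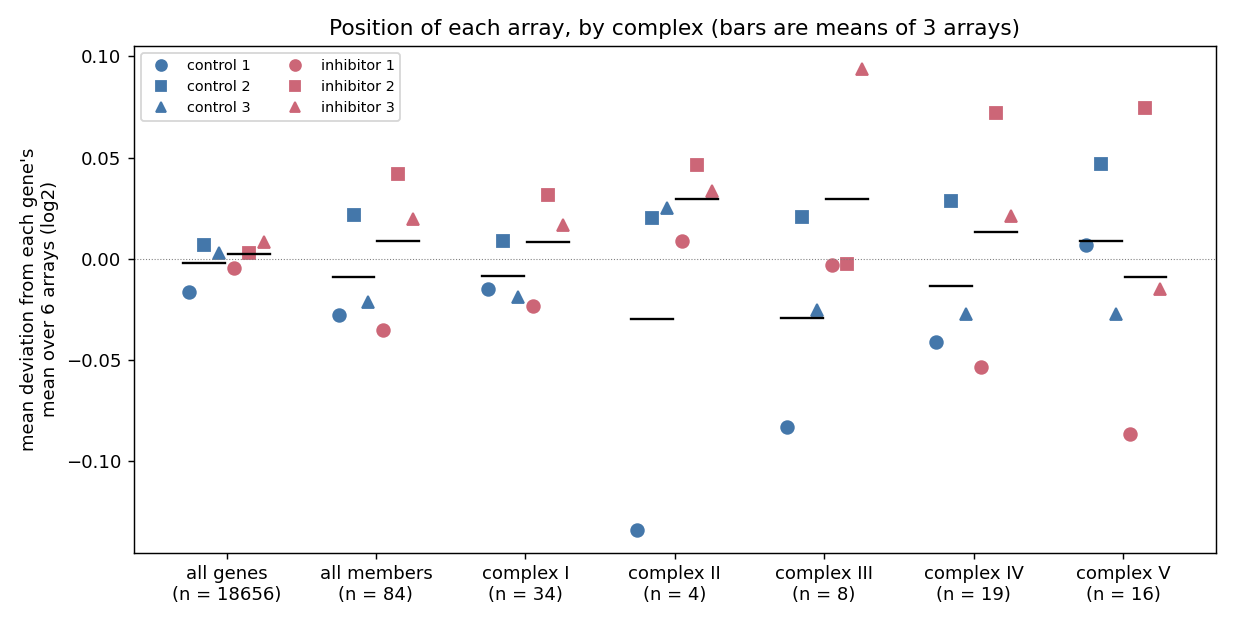
Mean deviation of the genes of each complex, of the whole set (all members) and of all genes from their own mean over 6 arrays (log2, vertical axis), 1 point per array and a bar at each group's mean. The groups overlap in every complex, and complex II shows control replicate 1 at -0.13.

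Promoters of the set held the letters of 3 known regulators of mitochondrial genes, NRF1, ETS factors and YY1, in larger shares than promoters at large, a description with no test. The promoters compared were not matched for expression level or base content. RefSeq promoters (GRCh38.p14, 250 bases before to 50 after the gene start) matched 67 of the 84 genes. Both strands were searched for 4 motifs, chosen after the values had been seen. TGCGCA, the core of the nuclear respiratory factor 1 (NRF1) site, was in 20 of 67 promoters (29.9%), against 11.0% of 14551 array genes and 8.42% of all 27305 promoters. CCGGAAG, bound by ETS factors such as GABPA, was in 19 (28.4%), against 14.7% and 10.7%. AAGATGG, the core of the YY1 site, was in 16 (23.9%), against 6.45% and 6.06%. CCAAT, bound by the general factor NF-Y, was in 23 (34.3%), against 36.5% and 35.7%. In 33 of the 67 promoters there was an NRF1 or an ETS match, in 16 none of the 4, and no promoter of the set had ETS and YY1 letters sharing bases. These combined counts were not made for promoters at large, so they have no share to be set against.

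Complex II was the complex in which all matched promoters, 3 of 3, held TGCGCA, and these are printed to show its placing. COX7B and ATP5F1E, with the lowest p on either side, are printed beside them. Each run is the 200 bases before the gene start, 5′ to 3′ on the gene's strand, with every match to the 4 motifs on either strand in capitals. They lie at chr5:218120-218319 (SDHA, plus strand), chr1:17054033-17054232 (SDHB, minus), chr11:112086673-112086872 (SDHD, plus), chrX:77899268-77899467 (COX7B, plus) and chr20:59032336-59032535 (ATP5F1E, minus). In SDHA the letters TGCGCA recurred 4 times at a spacing of 49 bases, starting 167, 118, 69 and 20 bases before the start. SDHB and SDHD each held 1 NRF1 and 1 ETS match, COX7B held no match in this window, and ATP5F1E held 4 CCAAT matches and no other.
SDHA: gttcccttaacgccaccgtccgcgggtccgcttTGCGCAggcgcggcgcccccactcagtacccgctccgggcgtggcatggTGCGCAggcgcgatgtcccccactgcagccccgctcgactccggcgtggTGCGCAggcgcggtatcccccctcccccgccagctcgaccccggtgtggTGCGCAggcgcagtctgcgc
SDHB: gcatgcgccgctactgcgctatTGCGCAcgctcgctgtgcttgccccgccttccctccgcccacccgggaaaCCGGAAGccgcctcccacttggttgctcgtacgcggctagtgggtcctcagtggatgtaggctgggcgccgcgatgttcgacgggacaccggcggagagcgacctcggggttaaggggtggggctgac
SDHD: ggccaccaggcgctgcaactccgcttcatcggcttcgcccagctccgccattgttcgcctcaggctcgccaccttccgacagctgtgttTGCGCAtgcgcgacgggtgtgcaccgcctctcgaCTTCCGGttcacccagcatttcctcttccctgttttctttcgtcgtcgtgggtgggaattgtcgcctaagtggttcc
COX7B: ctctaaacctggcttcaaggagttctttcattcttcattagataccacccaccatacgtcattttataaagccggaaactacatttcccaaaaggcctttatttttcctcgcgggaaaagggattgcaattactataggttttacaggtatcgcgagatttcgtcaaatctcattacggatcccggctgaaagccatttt
ATP5F1E: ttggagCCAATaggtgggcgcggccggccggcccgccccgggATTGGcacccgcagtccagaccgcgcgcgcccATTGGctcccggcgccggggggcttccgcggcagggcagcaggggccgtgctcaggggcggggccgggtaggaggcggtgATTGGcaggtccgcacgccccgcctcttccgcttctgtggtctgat

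**Figure D3:**
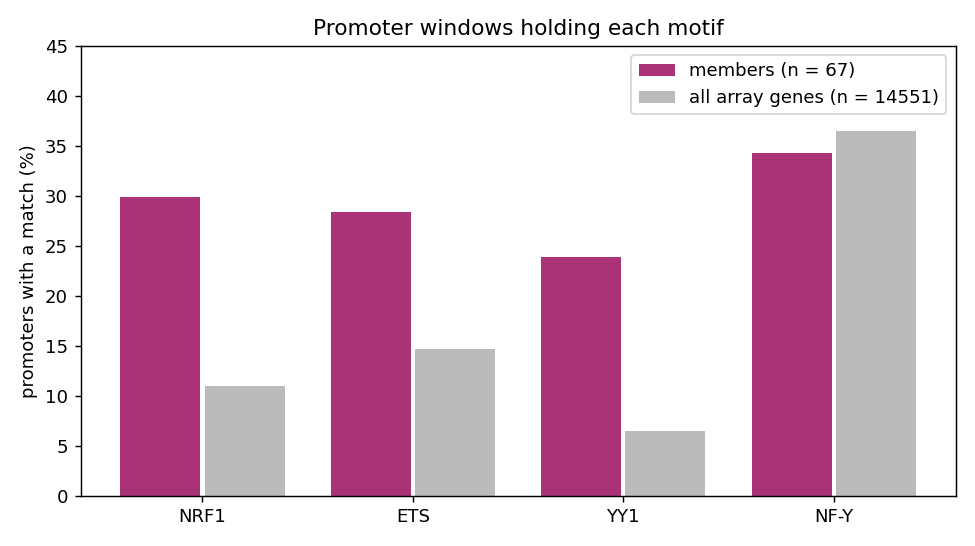
Share of promoters (percent, vertical axis) holding each of 4 motifs on either strand, for the 67 matched genes of the set and the 14551 array genes with a RefSeq promoter. NRF1, ETS and YY1 letters are at 29.9%, 28.4% and 23.9% in the set, against 11.0%, 14.7% and 6.45%, and CCAAT is at 34.3% against 36.5%.

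Complex I, NADH dehydrogenase, is built of core subunits that carry flavin and iron-sulfur clusters and of accessory subunits that surround them. Its 34 genes averaged 7.71 ± 0.015 (SD, n = 3) in the controls against 7.73 ± 0.028 (SD, n = 3) with the inhibitor. Their median difference was 0.023, with 19 positive and 15 negative. The 6 core genes gave 2 positive and 4 negative differences with a median of -0.048, and the 28 accessory genes 17 positive and 11 negative with a median of 0.033. This division was made after the values had been seen.

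Among the core genes, NDUFS8, which carries iron-sulfur clusters near the coenzyme Q site, read 8.36, 8.27 and 8.19 in control and 8.0, 8.19 and 7.99 in inhibitor arrays. The lowest control array and the highest inhibitor array nearly met, and the groups overlapped by that 1 array. The difference was -0.21 (SE 0.098, adjusted p = 0.79), and it was negative in 8 of 8 probe sets, the short stretches of the gene that the array reads. NDUFS7, a neighbouring iron-sulfur subunit, differed by -0.12 (SE 0.098). NDUFS1, the largest subunit and the carrier of several clusters, went the other way. It read 8.61, 8.69 and 8.69 in control and 8.77, 8.76 and 8.81 in inhibitor arrays, without overlap, a difference of 0.12 (SE 0.083, adjusted p = 0.81). Of its 21 probe sets, 14 were positive and 7 negative.

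Among the accessory genes, NDUFA1, a small membrane subunit needed for assembly, read 7.79, 7.81 and 7.78 in control and 7.89, 7.96 and 7.89 in inhibitor arrays. The inhibitor arrays were all higher, by 0.12 on average (SE 0.082, adjusted p = 0.81), with 3 of 5 probe sets positive. NDUFB4 read 5.18, 4.77 and 5.25 in control and 5.07, 5.58 and 5.31 in inhibitor arrays, which overlapped, for a difference of 0.25 (SE 0.16). Its 6 probe sets were all positive, from 0.023 to 0.41, but they hold only 3 distinct sets of values, each listed under 2 identifiers. NDUFB5 differed by 0.17 (SE 0.11) and NDUFS5, a small subunit of the side facing the intermembrane space, by -0.13 (SE 0.096), both with overlap. NDUFB1 read 8.04, 8.07 and 8.13 in control and 7.98, 8.0 and 8.03 in inhibitor arrays, lower without overlap by only 0.078 (SE 0.082). With the brightest probe set in place of the mean, the difference of NDUFA1 turned to -0.093 and that of NDUFB5 to -0.17.

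Complex II, succinate dehydrogenase, is shared by the respiratory chain and the citric acid cycle and is the only complex with no subunit encoded in mitochondrial DNA. Its 4 genes had a mean of 8.58 ± 0.090 (SD, n = 3) in the controls against 8.64 ± 0.019 (SD, n = 3) with the inhibitor, with 3 positive differences, 1 negative and a median of 0.055. Without control replicate 1, the array that was low in this complex, the median was -0.0030. With the median of each gene's probe sets in place of the mean it was -0.11, and without the dimmest 30% of probe sets -0.016.

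SDHA, the flavoprotein that oxidises succinate, read 9.81, 9.93 and 9.93 in control and 9.73, 9.87 and 9.95 in inhibitor arrays, a difference of -0.044 (SE 0.094). SDHB, the iron-sulfur subunit, read 9.20, 9.28 and 9.17 in control and 9.25, 9.25 and 9.18 in inhibitor arrays, a difference of 0.012 (SE 0.085). Both catalytic genes overlapped between groups. SDHC, one of the pair of membrane anchors that bind coenzyme Q, read 7.26, 7.41 and 7.74 in control and 7.71, 7.58 and 7.40 in inhibitor arrays, a difference of 0.098 (SE 0.14). SDHD, the other anchor, read 7.63, 7.89 and 7.70 in control and 7.77, 7.92 and 8.03 in inhibitor arrays, a difference of 0.17 (SE 0.11, adjusted p = 0.80). The 3 positive and 3 negative probe sets of SDHD ranged from -0.28 to 1.23, and its brightest differed by 0.033. With the median of probe sets the differences of SDHC and SDHD turned to -0.17 and -0.19.

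Complex III, which hands electrons from coenzyme Q to cytochrome c, had a mean of 7.61 ± 0.052 (SD, n = 3) in the controls against 7.67 ± 0.056 (SD, n = 3) with the inhibitor. Its 8 genes had a median difference of 0.027, with 6 positive and 2 negative. Leaving out 1 array at a time moved that median between -0.0081 and 0.069. The 4 small subunits UQCRH, UQCRB, UQCRQ and UQCR11 were all positive, from 0.024 to 0.22, a grouping made after the values had been seen.

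UQCRH, the hinge protein beside the cytochrome c docking site, read 7.75, 7.96 and 7.98 in control and 8.03, 8.14 and 8.18 in inhibitor arrays. The inhibitor arrays lay above every control array, by 0.22 on average (SE 0.099, adjusted p = 0.79). All probe sets, 6 of 6, were positive, though the brightest gave only 0.067. The difference of UQCRH is uncertain because the genome holds a near-identical copy, UQCRHL, whose RNA the same probes could bind. UQCRFS1, the Rieske iron-sulfur protein, read 8.09, 8.23 and 8.13 in control and 8.24, 8.21 and 8.54 in inhibitor arrays, a difference of 0.18 (SE 0.11) with overlap. CYC1, the cytochrome c1 that passes the electron on, differed by -0.036 (SE 0.098), and the core protein UQCRC1 by -0.065 (SE 0.088). UQCR11, a small subunit, differed by 0.091 (SE 0.085). The signs of CYC1, UQCRC1 and UQCR11 turned with the brightest probe set, to 0.010, 0.0067 and -0.0033.

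Complex IV, cytochrome c oxidase, passes electrons to oxygen. Its 19 genes had a mean of 6.92 ± 0.037 (SD, n = 3) in the controls against 6.95 ± 0.063 (SD, n = 3) with the inhibitor, and a median difference of 0.0089, with 10 positive and 9 negative. The median lay between -0.035 and 0.030 when 1 array at a time was left out.

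COX7B, a small subunit needed for assembly of the enzyme, had the largest positive difference of the set. It read 7.41, 7.78 and 7.68 in control and 7.85, 8.09 and 8.02 in inhibitor arrays, so the 3 inhibitor arrays were all higher and control replicate 1 was the lowest of the 6. The difference was 0.36 (SE 0.12, 95% interval 0.090 to 0.64), with an unadjusted limma p of 0.015 and an adjusted p of 0.79. It rests on 1 probe set, and without control replicate 1 it was 0.26. COX4I1, the regulatory subunit that binds ATP, read 7.16, 7.27 and 7.52 in control and 7.44, 7.51 and 7.60 in inhibitor arrays, a difference of 0.20 (SE 0.11, adjusted p = 0.79) with overlap. Its 9 probe sets ran from -0.20 to 0.82. The largest value was in the dimmest probe set, at a level of 3.11, and the brightest gave 0.13. COX8A, a small structural subunit, read 9.54, 9.84 and 9.57 in control and 9.46, 9.59 and 9.53 in inhibitor arrays, a difference of -0.12 (SE 0.11), negative in 4 of 4 probe sets.

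Several complex IV subunits have an isoform used in muscle, testis or low oxygen beside the widespread one, and positive and negative differences were nearly balanced in both kinds. The 11 widespread genes gave 6 positive and 5 negative differences with a median of 0.011. The 7 restricted isoforms, with the non-subunit COXFA4L2 counted among them, gave 3 positive and 4 negative with a median of -0.0067. Their group means lay between 2.62 and 6.16 on the log2 scale. COX6B2, the testis form of COX6B1, read 3.93, 4.10 and 3.90 in control and 3.78, 3.81 and 3.84 in inhibitor arrays. It was lower without overlap, by 0.17 (SE 0.091, adjusted p = 0.79), though its 11 probe sets ran from -1.17 to 0.78 and their median gave 0.037. COX6B1 itself differed by -0.010 (SE 0.091).

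The other restricted isoforms overlapped between groups, as did their widespread partners apart from COX7B. The lung and low-oxygen form COX4I2 differed by -0.13 (SE 0.13), where COX4I1 differed by 0.20. The muscle form COX6A2 differed by -0.044 (SE 0.10) and its widespread partner COX6A1 by 0.10 (SE 0.11). The identifiers of 3 of the 7 COX6A1 probe sets lay far from the others. Those 3 lay between the identifiers of NDUFA9 and ATP5F1B, which like COX6A1 are on chromosome 12, and differed by -0.097 to 0.18. The others lay between those of NDUFA2 on chromosome 5 and COX7A2 on chromosome 6, and differed by -0.027 to 0.35. The place that each probe set reads was not tested. The muscle form COX7A1 differed by 0.0089 (SE 0.11) and its partner COX7A2 by 0.029 (SE 0.10). The testis forms COX7B2 and COX8C differed by 0.050 (SE 0.12) and 0.13 (SE 0.11). NDUFA4, first assigned to complex I and now known as a complex IV subunit, differed by -0.027 (SE 0.13), and its hypoxia-induced relative COXFA4L2 by -0.0067 (SE 0.11). Differences between the partners of a pair were not tested.

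Complex V had a mean of 8.48 ± 0.037 (SD, n = 3) in the controls against 8.46 ± 0.081 (SD, n = 3) with the inhibitor. Its 16 genes had a median difference of -0.072, with 7 positive and 9 negative. The sign of that median was not stable: it was 0.023 without inhibitor replicate 1, the array lowest in this complex at 0.086 below the mean, 0.037 with the median of probe sets and 0.022 once the dimmest 30% of probe sets were left out. Adding the genes ATP5IF1, ATP5MJ and ATP5MK, which match by current symbol only, brought it to -0.0013.

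The catalytic head of ATP synthase, F1, is a ring of alpha and beta subunits around a stalk of gamma, delta and epsilon, and its 5 genes gave 3 positive and 2 negative differences. ATP5F1A, the alpha subunit, read 9.79, 9.90 and 9.78 in control and 9.93, 9.96 and 10.00 in inhibitor arrays. It was higher without overlap, by 0.14 (SE 0.085, adjusted p = 0.80), although its brightest probe set gave -0.023. The beta subunit ATP5F1B, which makes the ATP, and the gamma subunit ATP5F1C differed by 0.076 (SE 0.10) and 0.052 (SE 0.097), with overlap. ATP5F1D, the delta subunit, read 8.79, 8.97 and 8.66 in control and 8.44, 8.88 and 8.62 in inhibitor arrays. Its difference of -0.16 (SE 0.13) was negative in 8 of 8 probe sets but smaller than the range of either group.

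ATP5F1E, the epsilon subunit at the foot of the stalk, had the largest negative difference of the set. It read 7.68, 7.75 and 7.72 in control and 7.52, 7.52 and 7.33 in inhibitor arrays, all of the latter lower. The difference was -0.26 (SE 0.092, 95% interval -0.47 to -0.046), with an unadjusted limma p of 0.022 and an adjusted p of 0.79. Of its 6 probe sets 5 were negative, 2 of them at -0.68 and -0.55, while the brightest was positive at 0.080. The promoter of this gene, printed above, is the one with 4 CCAAT matches.

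In the membrane part, 3 genes, ATP5MC1, ATP5MC2 and ATP5MC3, encode the same mature c subunit of the rotating ring with different import sequences. ATP5MC1 differed by -0.10 (SE 0.097), ATP5MC2 by -0.097 (SE 0.11) and ATP5MC3 by 0.089 (SE 0.085), all with overlap. In the peripheral stalk, which holds the head still, ATP5PB read 8.41, 8.80 and 8.66 in control and 8.63, 8.82 and 9.15 in inhibitor arrays, a difference of 0.24 (SE 0.15, adjusted p = 0.80). Its 6 probe sets ran from -0.047 to 0.96, and the brightest gave only 0.060. The other 3 stalk genes were negative, from -0.10 to -0.051. Among them ATP5PF read 8.29, 8.28 and 8.30 in control and 8.21, 8.24 and 8.28 in inhibitor arrays, lower without overlap by a difference of -0.051, less than its SE of 0.081. ATP5MG, the g subunit found where ATP synthases pair up, differed by 0.11 (SE 0.087).

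**Figure D4:**
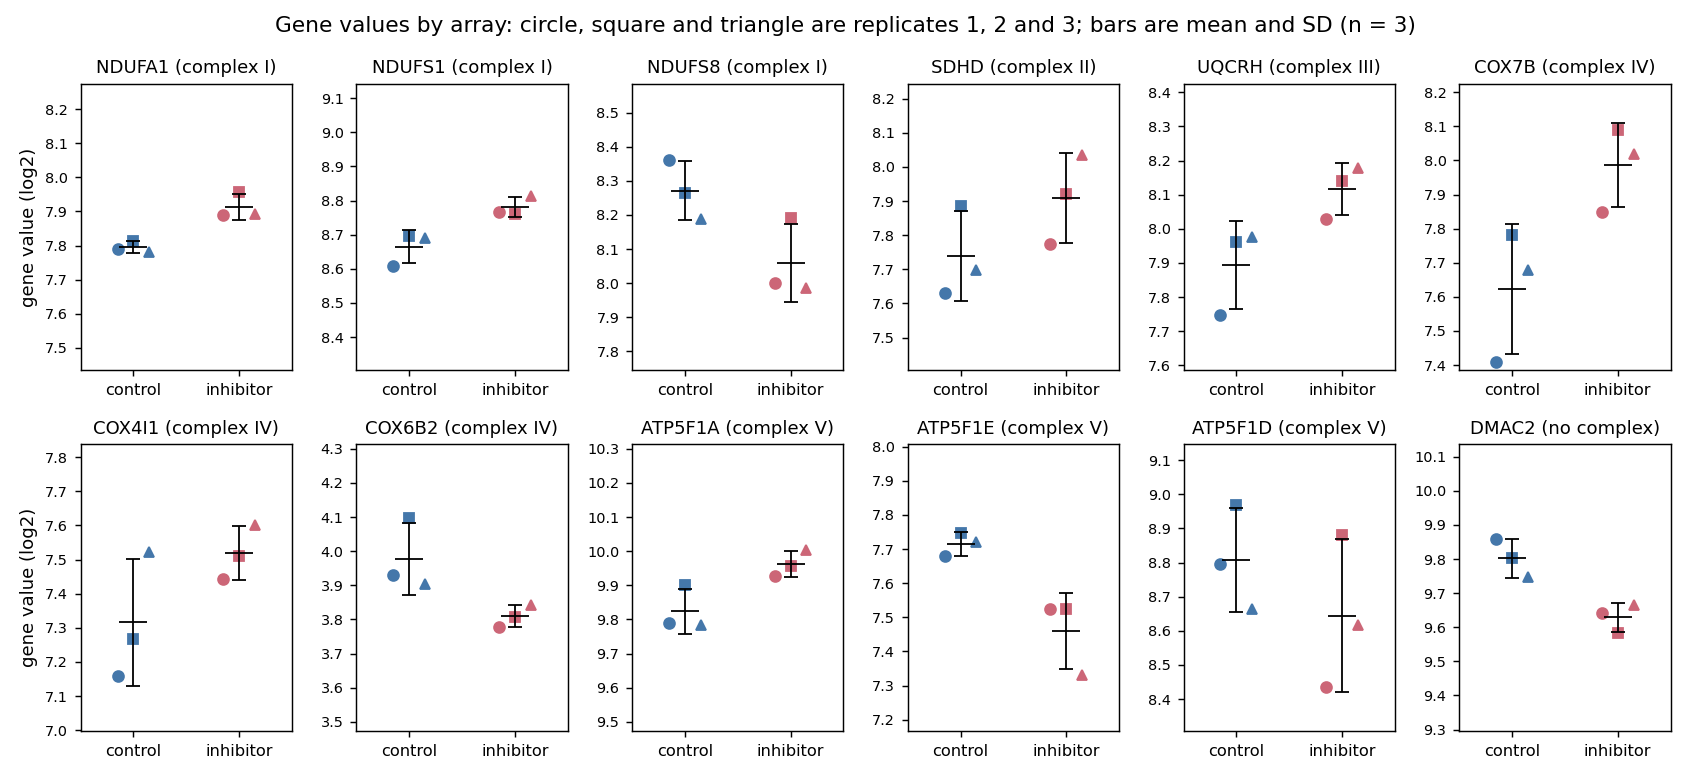
Log2 expression (vertical axis) of 12 genes in the 3 control and 3 inhibitor arrays, 1 point per array with bars for the mean and SD (n = 3), every panel spanning the same log2 range. COX7B (7.62 and 7.99 on average) and ATP5F1E (7.72 and 7.46) are separated between groups, and SDHD and COX4I1 overlap.

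None of the 5 genes that the symbols take in although they are not subunits was called. DMAC2, a factor for the assembly of complex I despite its older ATP synthase name, read 9.86, 9.80 and 9.75 in control and 9.64, 9.58 and 9.66 in inhibitor arrays. It was lower without overlap by 0.17 (SE 0.085, adjusted p = 0.79), in 5 of 5 probe sets. DMAC2L, coupling factor B, differed by 0.16 (SE 0.15), EMC8, a subunit of the endoplasmic reticulum membrane protein complex, by 0.030 (SE 0.095), and COX7A2L, which joins complex III and IV into supercomplexes, by 0.094 (SE 0.095). Leaving the non-subunits out gave the same counts at an unadjusted p under 0.05, 1 higher and 1 lower.

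At the level of single probe sets, 0 of the 604 read from these genes passed an adjusted p of 0.05 in limma (smallest 0.71). At an unadjusted p under 0.05, 11 were higher (1.82%, against 3.11% of all 224320) and 10 lower (1.66%, against 3.09%). Counting probe sets with identical values once, all probe sets of a gene pointed the same way in 6 of the 78 genes with at least 4: UQCRH upward, and NDUFS8, COX8A, ATP5F1D, ATP5ME and DMAC2 downward. That is 7.69%, against 2.82% of all genes with at least 4, but the genes of the set have fewer probe sets (median 6, against 10). Among genes with 4 to 8 probe sets it was 6 of 60 (10.0%), against 392 of 5616 (6.98%). ATP5ME, a small membrane subunit of ATP synthase, was named for this count after its value of -0.093 had been seen. The one-way count was not tested.

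**Figure D5:**
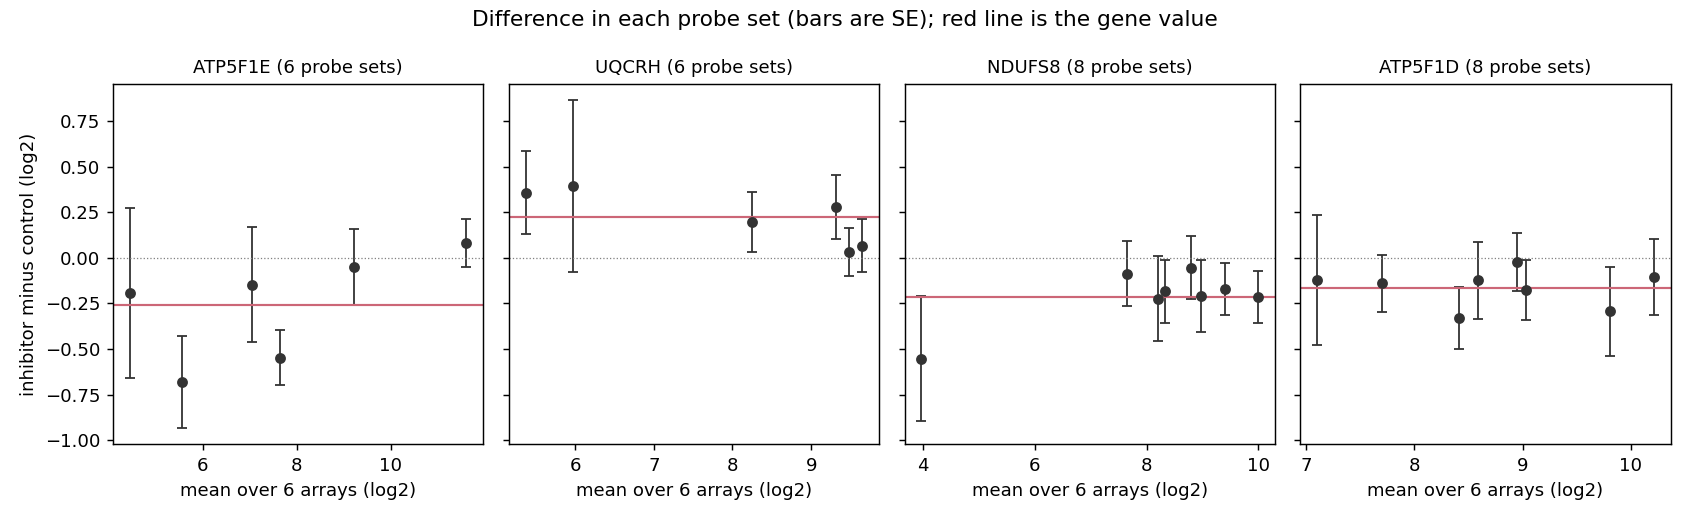
Difference of each probe set, inhibitor minus control (log2, vertical axis), with its SE as a bar, against its mean level (log2, horizontal axis) for ATP5F1E, UQCRH, NDUFS8 and ATP5F1D, where the red line is the gene's difference. The probe sets of UQCRH are all above 0, those of NDUFS8 and ATP5F1D all below, and the brightest of ATP5F1E is above 0 at 0.080.

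Genes that build or feed the chain were examined as accompanying lists, and limma called 0 of them at an adjusted p of 0.05. At an unadjusted limma p under 0.05, DLD and POLG2 were higher and UQCC3, COQ5 and PPRC1 lower in the inhibitor arrays. At that level 2.95% of all genes were higher and 3.16% lower. The difference was positive for 50.5% of all genes, and the counts of positive differences in these lists were not tested. Of 16 complex I assembly factors measured, 11 differences were positive (median 0.045). The genes of that list with the smallest p in either direction were NDUFAF5, which modifies NDUFS7, at 0.21 (SE 0.11) and NDUFAF3 at -0.20 (SE 0.098). All 3 complex II factors were positive (median 0.15), among them SDHAF4 at 0.16 (SE 0.12). Of 6 complex III factors, 2 were positive (median -0.031). In that list LYRM7, which matures the Rieske protein, was at 0.30 (SE 0.15), and UQCC3 was at -0.24 (SE 0.086, limma adjusted p = 0.79). Of 21 complex IV factors, 13 were positive (median 0.0089), from COX16 at -0.16 (SE 0.098) to COX20, a chaperone of COX2, at 0.19 (SE 0.088). All 3 complex V factors were positive (median 0.11), with TMEM70 at 0.11 (SE 0.11).

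NDUFAB1, the acyl carrier protein that sits in complex I but has a symbol outside the rule, read 8.87, 8.97 and 8.93 in control and 9.0, 9.16 and 9.28 in inhibitor arrays. It was higher without overlap, by 0.22 (SE 0.099, adjusted p = 0.79), in 5 of 5 probe sets. Of 15 genes for cytochrome c and coenzyme Q, 4 were positive and 10 negative (median -0.054). Cytochrome c itself, CYCS, read 7.38, 7.86 and 7.99 in control and 7.93, 8.06 and 8.03 in inhibitor arrays, a difference of 0.26 (SE 0.15) in which control replicate 1 is the low array. COQ5, a methyltransferase of coenzyme Q synthesis, was at -0.34 (SE 0.14, limma adjusted p = 0.79). Of 7 genes for ATP export and phosphate import 6 were positive (median 0.075), with VDAC2, an outer membrane channel, at 0.23 (SE 0.10) and SLC25A6, an ADP/ATP carrier, at -0.056 (SE 0.081). Of 11 citric acid cycle genes 6 were positive (median 0.024), with DLD, a subunit shared by the 2-oxoacid dehydrogenases, at 0.27 (SE 0.11, limma adjusted p = 0.79) and IDH3G at -0.18 (SE 0.096).

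Among 16 regulators of mitochondrial gene expression, 9 were positive and 7 negative (median 0.038). PPRC1, a coactivator of the same family as PGC-1 alpha that works with NRF1, read 7.03, 7.09 and 7.47 in control and 6.86, 6.85 and 6.75 in inhibitor arrays. All inhibitor arrays were lower, by a mean difference of -0.38 (SE 0.12, limma adjusted p = 0.79), in 16 of 17 probe sets. POLG2, the accessory subunit of the mitochondrial DNA polymerase, was at 0.28 (SE 0.12, limma adjusted p = 0.79). The factors whose motifs were searched in the promoters were at 0.069 (SE 0.13) for NRF1, 0.24 (SE 0.19) for GABPA and 0.052 (SE 0.081) for YY1, named here for that search after their values had been seen.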

How the data were processed

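The 6 arrays (3 control, 3 inhibitor) of the Affymetrix Human Gene 1.0 ST design were used. The deposited table holds log2 values of 257430 exon-sized probe sets; Affymetrix Expression Console, Transcriptome Analysis Console and RMA are named in the submitters' processing notes, and the versions and the genome build are not given in the sources used here. RMA brings arrays to nearly the same distribution (column medians 6.02 to 6.07), so it would hide a change common to most genes. The precision is limited by having 3 arrays a group, and scan dates were not used.

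Probe sets naming 1 gene (224320) were kept. Of their 18701 symbols, 16068 were current in RefSeq (GRCh38.p14), 2533 were updated and 100 kept as given. The mean log2 value of a gene's probe sets gave 18656 genes; the 84 genes of the set drew on 604 probe sets (1 to 21 each), and 21 of their symbols were updated. RefSeq names pseudogenes of 47 of them, and 60 probe sets naming one of them with another gene were left out. Identifiers of 17 probe sets in 9 genes lay more than 500 from the gene's median identifier. In NDUFB4, 3 probe sets repeat the values of the other 3, which leaves its mean as it is.

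limma 3.58.1 (R 4.3.3, lmFit and eBayes, tested on simulated data) compared inhibitor with control, unblocked, with p-values adjusted by Benjamini-Hochberg over the 18656 genes. No adjustment was made over the set alone. Replicate numbers were not taken as pairs: same-numbered arrays' deviations correlated at -0.032, -0.040 and 0.17. Named genes were, in complexes I, III, IV and V, the 3 positive and 3 negative with the smallest p, all of complex II, any at p under 0.05, the listed isoforms and c subunit genes, the non-subunits, and the leading gene each way of every accompanying list; exceptions are stated. The members and lists were chosen with earlier results of these data known. The alternatives were the replicate block, 2 normalizations, 2 ways and 1 restriction of combining probe sets, 2 dimness filters, trended robust eBayes, array weights, 2 memberships and leaving out each array.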

Additional observations from a re-analysis of the deposited data

How the results depend on the processing

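The count of called genes of the set was 0 under every alternative run, with the smallest adjusted p from 0.53 (array weights) to 0.91 (without inhibitor replicate 1), and 1 to 5 genes higher and 0 to 3 lower at an unadjusted p under 0.05. With the replicate number as a block, 0 were called, 2 were higher and 1 lower at that level, and every median was as without the block. Control replicate 1 correlated best with inhibitor replicate 2 (0.21), and control replicate 3 with inhibitor replicate 3 (0.17). Whether the number pairs the arrays cannot be settled from 3 arrays a group.

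The medians that moved by more than the spread between arrays were those of complex II, at -0.11 with the median of probe sets and -0.016 without the dimmest 30% of probe sets, and of complex V, at 0.037 and 0.022 under the same settings, 0.023 without inhibitor replicate 1 and -0.0013 with the genes of matching current symbol added. Leaving out 1 array at a time gave medians of 0.0074 to 0.041 for all 84 genes, 0.017 to 0.047 for complex I, -0.0030 to 0.071 for II, -0.0081 to 0.069 for III, -0.035 to 0.030 for IV and -0.086 to 0.023 for V. The cause was not tested.

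Of 922 single-gene values (58 named genes, 16 alternatives), 855 kept their direction, 65 turned and 2 came to 0 (NDUFA4 with the median of probe sets and NDUFS5 with the brightest), and 26 genes kept their direction throughout. Restricting each gene to probe sets near its median identifier was an alternative chosen after seeing the data. It turned 0 of the 56 named genes that it could give, and NDUFB4 and SLC25A6 had no probe set left. The restriction keeps the larger block of identifiers, as in COX6A1. There it left out 3 of 7 probe sets, those among the identifiers of genes on chromosome 12, where COX6A1 lies. The restriction cannot tell which block is the gene's own. With quantile normalization the differences that turned were COX7A1 (-0.0016). With the median of probe sets the differences that turned were UQCR11 (-0.073), CYC1 (0.0033), COX6B2 (0.037), SDHB (-0.023), SDHC (-0.17), SDHD (-0.19), COX6A1 (-0.017), COX6A2 (0.045), DMAC2L (-0.017), EMC8 (-0.17), IDH3G (0.13), NDUFAF3 (0.070), SDHAF4 (-0.047), COX16 (0.030). With the brightest probe set the differences that turned were NDUFB5 (-0.17), NDUFA1 (-0.093), UQCR11 (-0.0033), UQCRC1 (0.0067), CYC1 (0.010), COX8C (-0.023), ATP5F1A (-0.023), ATP5F1E (0.080), SDHA (0.037), SDHB (-0.027), COX6A1 (-0.097), COX6B1 (0.013), COX7A1 (-0.45), COX7B2 (-0.32), COXFA4L2 (0.013), NDUFA4 (0.030), ATP5MC3 (-0.040), COX7A2L (-0.27), DLD (-0.0067), LYRM7 (-0.017), COX16 (0.0033). With the dimmest 30% of probe sets left out the differences that turned were COX8C (-0.023), SDHC (-0.083), COX7A1 (-0.13), COX7B2 (-0.32), COX16 (0.0046). With array weights the differences that turned were SDHB (-0.0089), COX6A2 (0.019), COX6B1 (0.0079), COXFA4L2 (0.055). Leaving out 1 array at a time, the differences that turned ranged from -0.12 to 0.018 for COX6A2, -0.050 to 0.041 for COX6B1, -0.085 to 0.071 for COX7A1, -0.040 to 0.12 for COX7A2, -0.019 to 0.17 for COX7B2, -0.096 to 0.053 for COXFA4L2, -0.091 to 0.020 for CYC1, -0.022 to 0.080 for EMC8, -0.11 to 0.097 for NDUFA4, -0.093 to 0.014 for SDHA, -0.012 to 0.046 for SDHB, -0.0079 to 0.23 for SDHC.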
